A study of Mus musculus with 8 samples.

Results

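The genes described here encode the machinery that copies DNA in S phase, measured in the duodenum of mice lacking IκBα in gut epithelium and of their wild-type littermates. They were chosen by gene symbol from a list of 39 genes for replication licensing, helicase activation, DNA polymerases, nucleotide synthesis, the G1/S switch and chromatin copying. Of these, 38 had a named probe set, among 22206 probe sets in all, and Mcm7 was not analysed here. The 4 knockout (KO) mice, labelled NFKBIA_IEC_KO, carried floxed IκBα (gene Nfkbia) and Villin-Cre, which removes the gene's promoter and first exons in villin-expressing epithelium. The 4 wild-type (WT) mice were their littermates, and each KO was paired with 1 WT sibling. All 8 mice were untreated and fed standard pellets. Pairs 1 and 3 were 8 weeks old, pair 2 was 11 weeks old and pair 4 was 9 weeks old. Pair 1 held males, pair 2 females, pair 3 a male KO and a female WT, and pair 4 a female KO and a male WT. Villin-Cre leaves the gene intact in the other cells of the gut wall, and the RNA came from homogenized duodenum (small intestine, per the sample labels).

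DNA is copied once per cell cycle. In G1, the origin recognition complex with Cdc6 and Cdt1 loads the MCM ring onto origins. At the G1/S switch, cyclin E with its kinase and the E2F factors start the S-phase programme, and Cdc45 and GINS turn the loaded ring into an active helicase. In the small intestine, cells that replicate their DNA lie in the crypts, while the villus epithelium has left the cell cycle. IκBα holds NF-κB inactive in the cytoplasm.

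A few of these genes changed and most did not pass the test. The expression level of 4 of the 38 measured members was higher in KO duodenum (10.5%, against 3.16% of all probe sets), namely E2f2, Rrm2, Uhrf1 and Pole. The level of 1 member, the cyclin gene Ccne2, was lower (2.63%, against 2.70% of all probe sets). These calls had a limma adjusted p under 0.05 over all probe sets in a fit with the sibling pair as a block, where 5.86% of probe sets were called in either direction. At an unadjusted p under 0.05, 11 members were higher and 1 was lower (13.2% and 14.2% of all probe sets). The 33 members that were not called had differences between −0.10 and 0.44 on the log2 scale, 25 of them positive and 8 negative. For 23 of these 33 the 95% interval lay within 0.5 on either side of 0. The sign of 22 members, none of them called, turned under at least 1 other setting, so differences near 0 are given as values without a direction.

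The median KO minus WT difference over the 38 members was 0.136 on the log2 scale, beside −0.015 over all probe sets. That sign depends on what the arrays are scaled to. Centred on 10 housekeeping genes, whose own median difference was 0.196, the members' median was −0.0282, with 2 members higher and 1 lower. Centred on 18 epithelial markers, it was 0.373, with 14 higher and 1 lower. The own median difference of those markers was −0.1675, and the mean used for the centring includes Lct at −2.84, itself called lower. The first centring moves the median of all probe sets by −0.165, with 494 probe sets called higher and 5006 lower. The second moves it by 0.237, with 3227 higher and 295 lower, against 702 and 599 with the deposited scaling. Centring adds 1 constant to every difference of a pair, so the distance of the members from the other probe sets in that pair is left as it is.

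**Figure D1:**
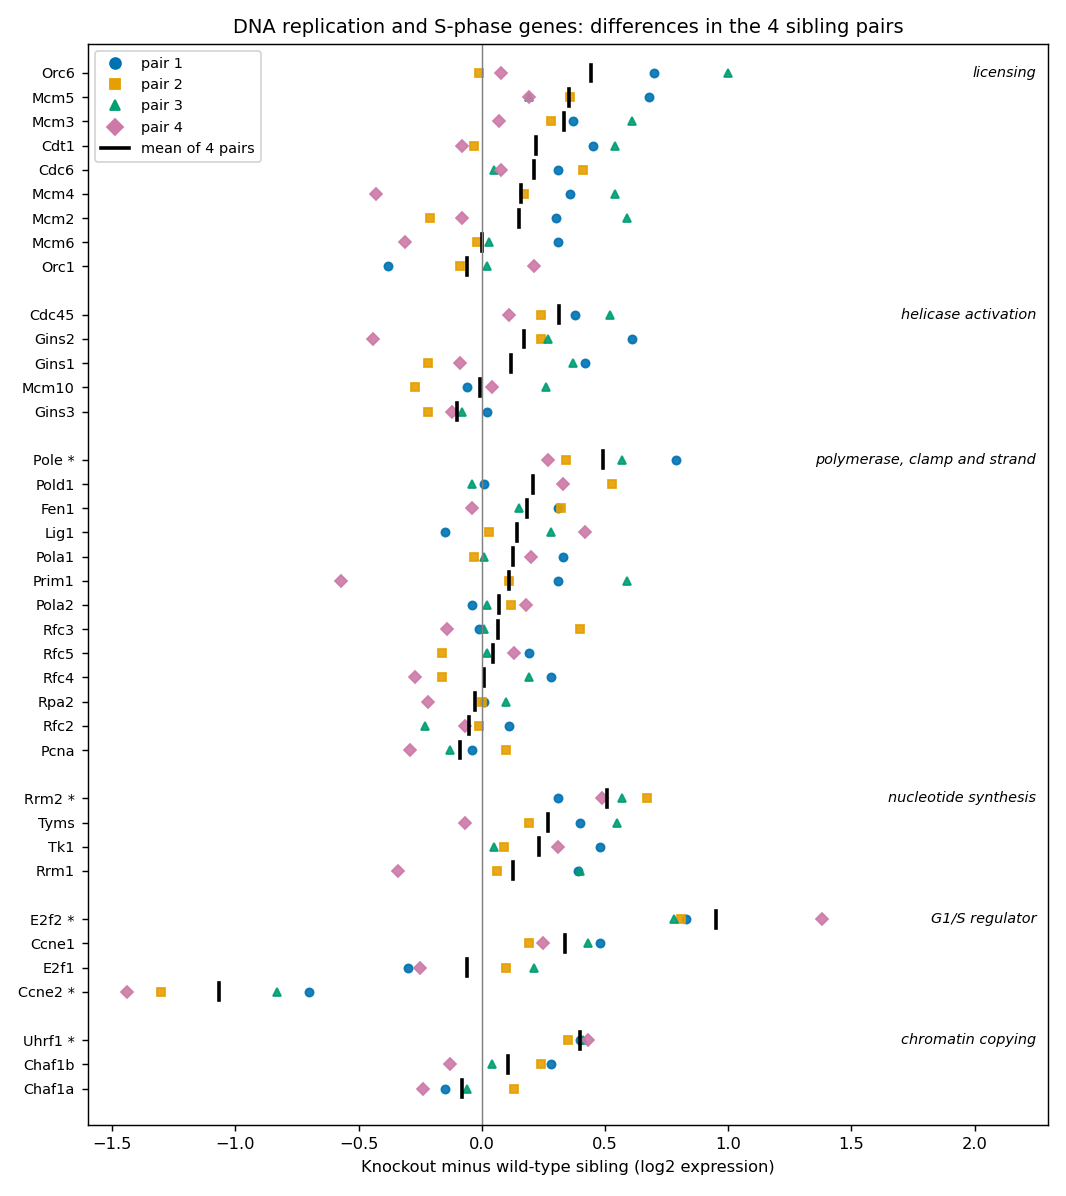
KO minus WT differences on the log2 scale for the 38 measured members, grouped by role; points are the 4 sibling pairs, bars their mean, and asterisks mark the 5 called members. The mean of E2f2 (0.95) lies farthest to the right and that of Ccne2 (−1.07) farthest to the left, while the means of the 33 members not called lie between −0.10 and 0.44.

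The arrays were checked against the labels. Nfkbia had log2 levels of 6.82, 6.65, 7.72 and 6.65 in the KO mice of pairs 1 to 4, against 9.75, 9.91, 9.01 and 9.78 in their WT siblings (difference −2.65 ± 0.918, SD of 4 within-pair differences, limma adjusted p = 0.0130). Every KO level lay below every WT level, and pair 3 had the smallest gap. Epithelial markers had a mean log2 level of 11.9 to 12.1 in KO mice and 12.2 to 12.4 in WT mice. The mean level of 8 duodenal markers was 9.28 to 9.97 in KO mice and 8.88 to 9.57 in WT mice. These duodenal means hide differences from −2.34 (Cubn) to 1.75 (Slc40a1), with 1 marker called higher (Slc40a1) and 1 lower (Gip, −0.51). Background was set at 5.65, below which 95% of 1091 olfactory receptor probe sets lay, and Orc1 was the 1 member whose mean lay below it. Deposited values of a probe set have nearly the same mean in each pair, so the spread among mice of 1 genotype says little, and the difference within a pair is the measurement. For the same reason, KO and WT levels that do not overlap add little to differences of 1 sign in all 4 pairs. Throughout, ± is the SD of the 4 differences, and 95% intervals are limma's. In bulk tissue, fewer cells of a type and less RNA per cell cannot be told apart.

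At the G1/S switch the 4 measured members divided, with 1 higher, 1 lower and 2 not called. E2f2, an E2F factor of the activator class, had log2 levels of 8.19, 8.18, 8.11 and 8.41 in KO mice of pairs 1 to 4, against 7.36, 7.37, 7.33 and 7.03 in WT mice. The KO and WT levels did not overlap, and each KO was above its sibling. The difference was 0.95 ± 0.287 (95% interval 0.67 to 1.23), a 1.93-fold higher level (limma adjusted p = 0.0140). Without pair 1 its adjusted p by limma was 0.0522, and without pair 2 it was 0.0574.

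Ccne2, which encodes cyclin E2, an activator of the kinase Cdk2, moved the other way. Its log2 levels were 6.76, 6.46, 6.64 and 6.28 in KO mice of pairs 1 to 4, against 7.46, 7.76, 7.47 and 7.72 in WT mice. All KO levels lay below all WT levels. The difference was −1.07 ± 0.358 (95% interval −1.40 to −0.74), so that the WT level was 2.10-fold that of KO (limma adjusted p = 0.0158). Its call was lost without pair 2 (limma adjusted p = 0.0683).

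Ccne1, which encodes cyclin E1, did not follow Ccne2. It had levels of 7.57, 7.43, 7.53 and 7.42 in KO mice, against 7.09, 7.24, 7.10 and 7.17 in WT mice, with no overlap and each KO above its sibling. The difference of 0.34 ± 0.139 (95% interval 0.14 to 0.53) did not pass the threshold (limma adjusted p = 0.0606), so the genes of the 2 E-type cyclins had mean differences of opposite sign, of which that of Ccne2 was called. E2f1, the other E2F activator listed, differed by −0.06 and was not called.

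**Figure D2:**
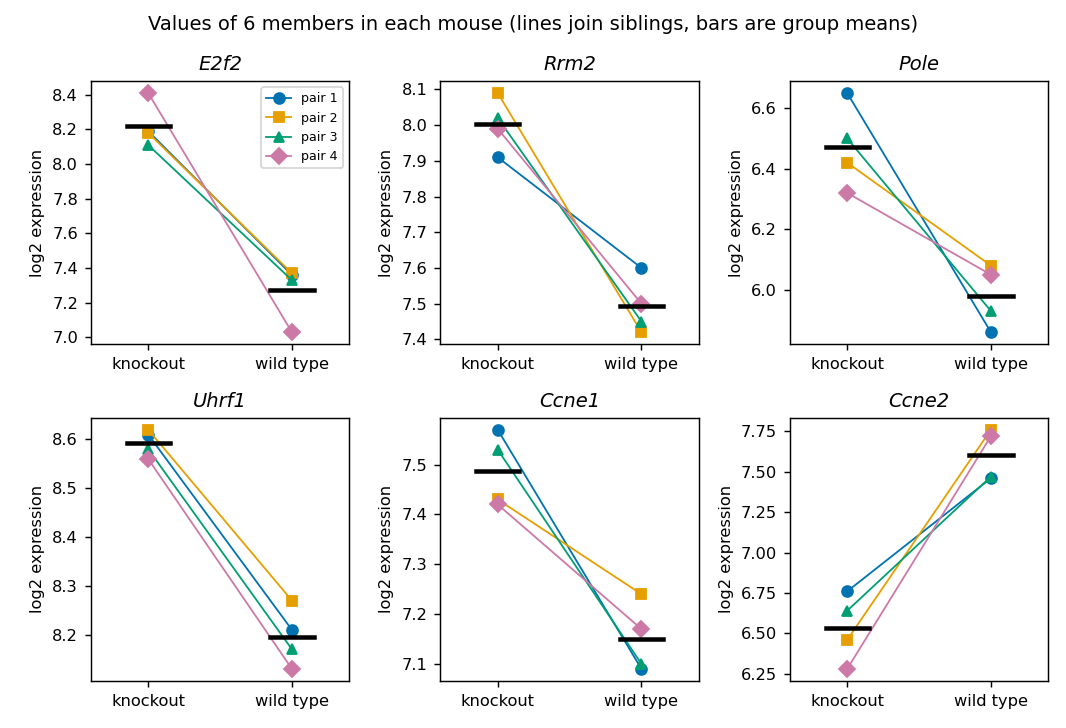
Log2 expression level of 6 members in each mouse, KO left of WT in each panel; lines join the siblings of a pair and bars are group means. The lines slope the same way in all 4 pairs in every panel, with WT below KO for E2f2, Rrm2, Pole, Uhrf1 and Ccne1 and above it for Ccne2.

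Among the 4 genes of deoxynucleotide supply, 1 was higher and 3 were not called, and their median difference was 0.25. Rrm2 encodes the small subunit of ribonucleotide reductase, which makes deoxynucleotides and is produced in S phase. Its log2 levels were 7.91, 8.09, 8.02 and 7.99 in KO mice of pairs 1 to 4, against 7.60, 7.42, 7.45 and 7.50 in WT mice. The groups did not overlap. The difference was 0.51 ± 0.152 (95% interval 0.31 to 0.71), a 1.42-fold higher level (limma adjusted p = 0.0264). Rrm1, the large subunit of the same enzyme, differed by 0.13, and Tyms (thymidylate synthase) and Tk1 (thymidine kinase) by 0.27 and 0.23. None of these 3 was called.

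Uhrf1 was the 1 called gene of chromatin copying. Its protein reads hemimethylated DNA behind the fork and brings in the maintenance methyltransferase. Log2 levels were 8.61, 8.62, 8.58 and 8.56 in KO mice of pairs 1 to 4, against 8.21, 8.27, 8.17 and 8.13 in WT mice. The 4 differences were nearly equal, at 0.40 ± 0.0340 (95% interval 0.24 to 0.56, limma adjusted p = 0.0279), a 1.32-fold higher level. Chaf1a and Chaf1b, subunits of the factor that places histones on new DNA, differed by −0.08 and 0.11 and were not called.

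Of the 13 genes for polymerases, clamp and strand joining, 1 was higher and none was lower, with a median difference of 0.07. Pole encodes the catalytic subunit of DNA polymerase epsilon, which copies the leading strand. Its log2 levels were 6.65, 6.42, 6.50 and 6.32 in KO mice of pairs 1 to 4, against 5.86, 6.08, 5.93 and 6.05 in WT mice. No KO level reached down to a WT level, although the gap in pairs 2 and 4 was smaller than in pairs 1 and 3. The difference was 0.49 ± 0.236 (95% interval 0.25 to 0.74), a 1.41-fold higher level (limma adjusted p = 0.0458). Pold1, the catalytic subunit for the lagging strand, differed by 0.21, Fen1 (which trims Okazaki fragments) by 0.19 and Lig1 (which seals them) by 0.15. Pola1, Pola2 and Prim1, of the primase complex, differed by 0.13, 0.07 and 0.11.

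The clamp and its loader genes had small mean differences, although single pairs differed more. For Rfc4, pairs 1 to 4 gave 0.28, −0.16, 0.19 and −0.27. Pcna, the sliding clamp and a common marker of cycling cells, differed by −0.09 (95% interval −0.30 to 0.12). The clamp loader genes Rfc2, Rfc3, Rfc4 and Rfc5 differed by −0.05, 0.07, 0.01 and 0.05, and Rpa2, a subunit of the single-strand binding complex, by −0.03. None of these 6 members was called. Unlike Pole in the same group, none had a mean difference of more than 0.09 in size.

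The calls of Rrm2, Uhrf1 and Pole were each lost when any 1 pair was left out. Calls over all probe sets fell too, from 702 higher to between 89 and 219. With any 1 pair left out, the limma adjusted p lay between 0.0567 and 0.105 for Rrm2, between 0.0822 and 0.102 for Uhrf1 and between 0.0814 and 0.121 for Pole. Their differences stayed positive, at 0.46 to 0.58 for Rrm2, 0.39 to 0.41 for Uhrf1 and 0.39 to 0.57 for Pole.

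Licensing was represented by 9 measured genes, none of which was called. Their median difference was 0.21. Orc6, a subunit of the origin recognition complex, had the largest mean difference of these genes and also the widest spread. Its log2 levels were 6.94, 6.58, 7.00 and 6.54 in KO mice of pairs 1 to 4, against 6.24, 6.59, 6.0 and 6.46 in WT mice (difference 0.44 ± 0.488, limma adjusted p = 0.168). KO was far above WT in pairs 1 and 3 and level with it in pairs 2 and 4. Orc1 differed by −0.06, and the loading factors Cdc6 and Cdt1 differed by 0.21 and 0.22.

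Within the MCM ring, whose subunits act together in 1 hexamer, 5 genes were measured and none was called. Their 95% intervals overlapped, and differences between them were not tested. Mcm5 differed by 0.36 (limma adjusted p = 0.0875), Mcm3 by 0.33 (limma adjusted p = 0.0962), Mcm4 by 0.16 and Mcm2 by 0.15. For Mcm6 the difference was 0.00 (95% interval −0.26 to 0.26).

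Helicase activation comprised 5 genes with no call and a median difference of 0.12. Cdc45, which joins MCM and GINS in the active helicase, had log2 levels of 7.25, 7.19, 7.28 and 7.06 in KO mice of pairs 1 to 4, against 6.87, 6.95, 6.76 and 6.95 in WT mice. Each KO was above every WT, and the difference of 0.31 ± 0.177 (95% interval 0.10 to 0.53) missed the threshold (limma adjusted p = 0.0860). The GINS genes Gins1, Gins2 and Gins3 differed by 0.12, 0.17 and −0.10, and Mcm10, an initiation factor that binds the ring, by −0.01.

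Promoter sequence was set beside these values, since E2F factors regulate many S-phase genes. RefSeq promoter windows (GRCm38.p6) were found for 32 of the 38 members, and the 250 bases before each start were searched on both strands for TTTCGCGC or TTTGGCGC, which are letters of the E2F site and can overlap each other. A match was present in 6 of the 32 members (18.8%), against 2 of 30 mitosis genes (6.67%) and 167 of 15691 genes in all (1.06%). The members with a match were Mcm5, Mcm6, Orc1, Pola1, Rfc3 and Uhrf1, of which Uhrf1 was called. Mcm4, Gins1, Gins2, Pole, Rfc2 and Ccne2 had no window. The called members Pole and Ccne2 were therefore not searched, while E2f2, Rrm2 and Uhrf1 were. The letters CCAAT, on either strand, were present in 19 of 32 members (59.4%), 22 of 30 mitosis genes (73.3%) and 6158 genes in all (39.2%). The κB consensus, to which NF-κB binds, was matched in 1 of 32 members (3.12%, Chaf1b), in 3 of 30 mitosis genes (10%) and in 1008 genes in all (6.42%). It was searched on the gene's own strand only. Its matches on the other strand are not counted, and its shares cannot be set beside those of the other motifs. A match is a description of letters and not of a bound site.

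Stretches around the matches are printed for Uhrf1, the called member with an E2F match, and for others chosen after their values were seen. These are E2f2 and Rrm2, called members that hold CCAAT, and Mcm5 and Mcm6, which have several E2F letters and differences of 0.36 and 0.00. Each runs 5′ to 3′ in the direction of its gene. Capitals mark CCAAT in E2f2 and Rrm2 and the E2F letters in the others. A match of CCAAT on the other strand (ATTGG) inside the Mcm6 stretch is left in lower case. They lie at chr17:56304108-56304155 (plus strand) for Uhrf1, chr4:136180588-136180753 (plus) for E2f2 and chr12:24708184-24708228 (plus) for Rrm2. Those of Mcm5 and Mcm6 lie at chr8:75109336-75109387 (plus) and chr1:128359725-128359835 (minus). Each is upstream of a start of its gene. Uhrf1 and E2f2 have a further window, at chr17:56303087-56303386 and chr4:136172024-136172323, so their printed stretches lie downstream of another RefSeq start. The window printed was the one with the E2F match for Uhrf1 and with more CCAAT matches for E2f2.
Uhrf1: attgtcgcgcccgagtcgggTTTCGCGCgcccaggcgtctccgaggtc
E2f2: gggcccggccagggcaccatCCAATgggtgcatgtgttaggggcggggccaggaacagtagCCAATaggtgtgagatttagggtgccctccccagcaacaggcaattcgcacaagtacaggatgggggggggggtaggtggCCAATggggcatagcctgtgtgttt
Rrm2: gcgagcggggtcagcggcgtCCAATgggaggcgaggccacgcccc
Mcm5: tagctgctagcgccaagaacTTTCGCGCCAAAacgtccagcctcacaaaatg
Mcm6: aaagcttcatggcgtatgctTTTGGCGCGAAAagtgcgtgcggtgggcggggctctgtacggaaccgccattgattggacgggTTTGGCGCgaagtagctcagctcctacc

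The 4 pairs did not carry the same difference. The members' median was 0.31 in pair 1, 0.105 in pair 2, 0.20 in pair 3 and −0.055 in pair 4, where the median of all probe sets was −0.01 in each pair. KO was above WT for 29, 24, 32 and 18 of the 38 members in pairs 1 to 4. Pair 4 was the 1 pair with fewer members higher in KO than lower (18 and 20). An exact sign-flip test over 4 pairs cannot give a two-sided p below 0.125, so no such test of the median was made. In 10 of the 38 members KO was higher in 4 of 4 pairs (16.5% of all probe sets), and in 1 it was lower in 4 of 4 (17.9%). KO and WT levels did not overlap in 11 members, beside 33.1% of all probe sets.

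Members were counted over 1 split of the pairs, 1 and 3 against 2 and 4, and no other split was counted. In 18 of 38 members both differences of pairs 1 and 3 lay above both of pairs 2 and 4 (14.1% of all probe sets), and in 2 members the order was the opposite (15.1%). Among 34 mitosis genes the counts were 14 and 0. Pairs 1 and 3 are the pairs aged 8 weeks, have a male KO, and have an RNA integrity number (RIN) that was higher in the KO than in its sibling. The RIN was 8.5 in KO against 7.6 in WT in pair 1, 8.3 against 8.7 in pair 2, 8.3 against 7.4 in pair 3 and 7.0 against 7.7 in pair 4. Age, sex and RNA integrity cannot be told apart here. With RIN as a covariate beside the pair, 1 member was higher (E2f2) and 1 lower (Ccne2), and the members' median was 0.0901. With sex as a covariate, the same 2 members were called. Sex differed within pairs 3 and 4 only, in opposite directions, so this covariate could not move the mean differences (members' median 0.1362). It changed only their error estimates.

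**Figure D3:**
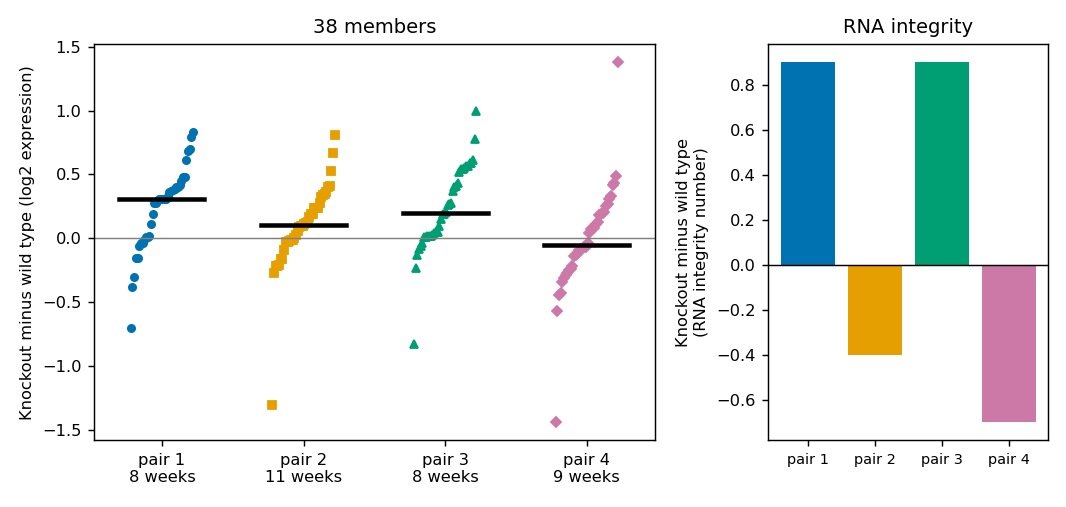
KO minus WT differences of the 38 members in each sibling pair on the log2 scale, sorted within the pair, with the median as a bar (left), and the KO minus WT difference in RNA integrity number of the same pairs (right). Medians are 0.31 and 0.20 in pairs 1 and 3, where the number was higher in KO, and 0.105 and −0.055 in pairs 2 and 4, where it was lower.

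Marker levels of other cells also differed between siblings, and their part in the results above was not tested beyond the fits given here. The mean level of 13 pancreatic acinar markers ranged from 7.30 to 9.04 in KO mice and from 8.29 to 10.8 in WT mice, with 0 of 13 called and median differences of −0.44, 0.06, −3.93 and −3.35 in pairs 1 to 4. For 10 adipocyte markers it ranged from 7.32 to 9.05 in KO mice and from 6.37 to 7.82 in WT mice, with 0 of 10 called and medians of 1.87, 1.47, 0.175 and −0.17. For 9 B cell markers the range was 6.47 to 6.94 in KO mice and 6.25 to 6.53 in WT mice, with 1 called higher and medians of 0.52, 0.46, −0.11 and 0.02. Germinal centre B cells divide rapidly, and their 5 measured markers had no call and medians of 0.15, 0.46, 0.07 and 0.02. The 8 crypt stem cell markers had no call and medians of −0.11, −0.18, 0.185 and −0.035. The mean level of 9 myeloid markers ranged from 7.24 to 7.54 in KO mice and from 7.23 to 7.51 in WT mice, with 0 of 9 called. Their medians were 0.22, 0, 0.07 and −0.23, so pairs 1 and 3 were the highest for this list, as for the members. Of 8 T cell markers, at 7.19 to 7.46 in KO mice and 7.50 to 7.73 in WT mice, 1 was called higher, and the medians were −0.065, −0.115, −0.235 and −0.71. The 6 endothelial markers, at 7.16 to 7.31 in KO mice and 6.93 to 7.09 in WT mice, had no call and medians of 0.22, 0.325, 0.29 and −0.04. The 8 smooth muscle markers, at 9.69 to 10.18 in KO mice and 10.01 to 10.30 in WT mice, had no call and medians of 0.19, 0.02, −0.475 and −0.615. The 18 epithelial markers had 1 called higher (Cdx1), 1 called lower (Lct) and medians of −0.08, −0.135, −0.18 and −0.275 in pairs 1 to 4. Pair 4 had the lowest median in the epithelial, adipocyte, germinal centre B cell, myeloid, T cell, endothelial and smooth muscle lists, as it did among the members. In the acinar, B cell, crypt stem cell and duodenal lists another pair was lowest. With the acinar mean as a covariate beside the pair, E2f2 stayed higher and Ccne2 lower, and with the adipocyte mean, E2f2, Uhrf1 and Ccne2 stayed called.

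Other genes of the same processes gave a few further calls. The other replication genes numbered 36 measured of 37 listed, with 4 higher (11.1%, against 3.16% of all probe sets), 0 lower and a median of 0.086. Dbf4, the activating subunit of the origin-firing kinase Cdc7, differed by 0.66 ± 0.201 (limma adjusted p = 0.0202), while Cdc7 itself differed by 0.09 (limma adjusted p = 0.648). Dna2, a nuclease that processes Okazaki fragments, differed by 0.53 ± 0.250 (limma adjusted p = 0.0424). Rpa3, the small subunit of the single-strand binding complex, differed by 0.47 ± 0.187 (limma adjusted p = 0.0388), and Donson, a factor of helicase assembly, by 0.42 ± 0.105 (limma adjusted p = 0.0332).

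Of 22 other nucleotide genes, 2 were higher (9.09%, against 3.16% of all probe sets) and 0 lower. These were Shmt2, which feeds mitochondrial folate metabolism, at 0.60 ± 0.218 (limma adjusted p = 0.0267), and Ctps, CTP synthase, at 0.50 ± 0.232 (limma adjusted p = 0.0444). Of 17 other G1/S genes, 0 were higher and 1 was lower (5.88%, against 2.70% of all probe sets). It was Tfdp2, a dimer partner of E2F factors (−0.37 ± 0.108, limma adjusted p = 0.0445). The median difference of these 17 genes was 0.1225, with 11 positive and 6 negative. Of 20 inhibitors of the cycle, 1 was lower (5%, against 2.70% of all probe sets). It was Btg2, an antiproliferative gene (−0.72 ± 0.293, limma adjusted p = 0.0271). The median of the inhibitors was −0.01125, with 10 positive and 10 negative. Of 13 other chromatin copying genes, 1 was higher (7.69%, against 3.16% of all probe sets). It was Hells, a chromatin remodeller that works in DNA methylation (0.61 ± 0.251, limma adjusted p = 0.0319).

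The mitosis genes, which act after replication, were set beside the members. Of 34 measured, 4 (11.8%) passed the test on the higher side and 0 on the lower, and their median was 0.23. The 38 replication members had 4 higher (10.5%), 1 lower and a median of 0.136. Over all probe sets, 3.16% were called higher and 2.70% lower, with a median of −0.015. Kif23, a kinesin of cell division, differed by 0.75 ± 0.162 (limma adjusted p = 0.0124), Mki67, the Ki-67 proliferation antigen, by 0.51 ± 0.135 (limma adjusted p = 0.0235), Top2a, which untangles chromosomes, by 0.51 ± 0.183 (limma adjusted p = 0.0321), and Prc1, of the spindle midzone, by 0.52 ± 0.268 (limma adjusted p = 0.0494). With any 1 pair left out, 0 or 1 gene of these 6 lists was called higher and 0 lower, against 11 and 2 with all pairs. The 1 gene was Dbf4 or Kif23. Over all probe sets, 89 to 219 were then called higher and 56 to 240 lower, against 702 and 599 with all pairs.

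**Figure D4:**
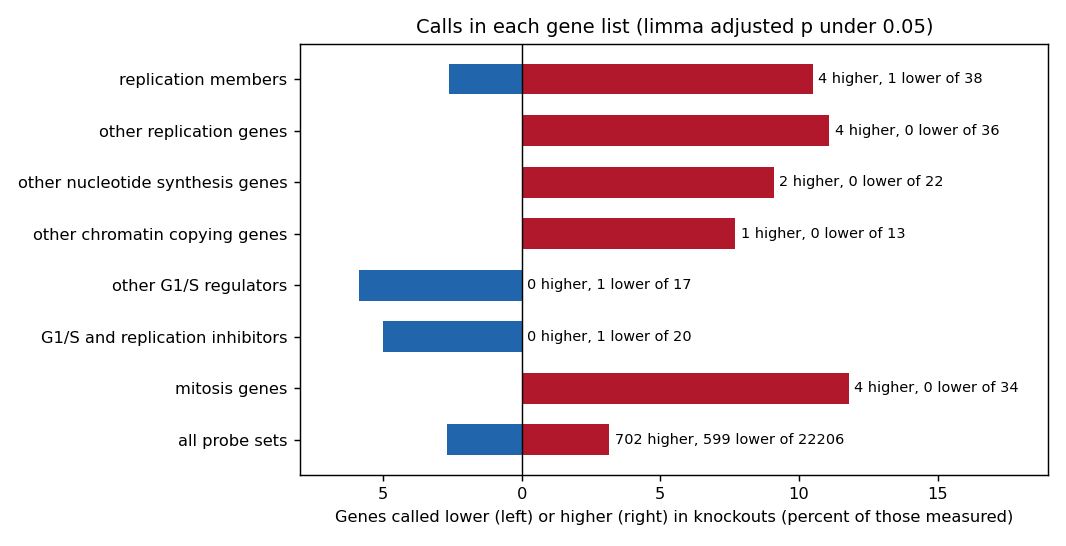
Percent of measured genes called higher (red bars, right of 0) and lower (blue bars, left of 0) in KO duodenum, for the replication members, each list of other cell-cycle genes and all probe sets, with the counts printed beside each bar. Calls lie on the higher side for the other replication, nucleotide, chromatin copying and mitosis lists. The other G1/S regulators and the inhibitors have 1 call each, on the lower side.

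The fit without the sibling block, which treats the 8 values as independent, called 13 members higher and 1 lower by limma, with 3622 probe sets higher and 4026 lower. Beside E2f2, Rrm2, Uhrf1 and Pole, these were Orc6, Cdc6, Mcm3, Mcm5, Cdc45, Fen1, Tyms, Tk1 and Ccne1. The 8 values are not independent, since the deposited pair means are nearly equal, so the p-values of this fit are too small.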

How the data were processed

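RNA of 8 mice was hybridised to mouse Clariom S arrays, a 1-colour platform. The deposited values are log2 expression per probe set, made with RMA and the Transcriptome Analysis Console 4.0, per the submitters' processing notes. Other upstream settings are not stated in what was used here. Array medians lay between 6.77 and 6.81, and the number of arrays limits the precision. An unrecorded step had made the pair means of a probe set nearly equal (median SD 0.0175, against 0.0897 expected from the within-pair differences).

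Probe sets were named through the platform table. Of these, 19572 had 1 symbol, 0 had several and 2634 none, and all 19572 gene IDs were in the RefSeq table (GRCm38.p6), with 0 symbols updated. Of 55 genes with more than 1 probe set, the brightest was used. The log2 values as deposited were fitted with limma 3.58.1 in R 4.3.3 (lmFit, eBayes), with genotype and sibling pair, two-sided, with Benjamini-Hochberg adjustment over 22206 probe sets and a threshold of 0.05. The block follows the littermate pairs in the labels. Deviations of the 2 siblings of a pair from their genotypes' means had correlations of −0.913 to −0.870 over probe sets, which the equal pair means impose, so they do not bear on the pairing. Residual degrees of freedom were 3 (6.63 after moderation). Per the labels, the pairs are separate animals. Differences of pairs 1 and 2 (r = 0.682) and of pairs 3 and 4 (r = 0.673) correlated more across probe sets than the others (0.346 to 0.420), which the fit does not allow for, so its p-values may be too small.

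The members and all gene lists were chosen with earlier results of these data known. Values in every mouse are given for members past the threshold, for those with an unadjusted p under 0.01 and for the largest difference of each role group. Of each other list, up to 4 called genes with the largest differences are named, or the largest where none was called, and other genes named were chosen after their values were seen. The 16 other settings comprised a fit with no block, quantile normalization, a background filter, centring (housekeeping genes or epithelial markers), trend with robust variance, covariates (sex, RNA integrity, acinar or adipocyte markers), pairs 1 and 2 or 3 and 4 alone, and each pair left out.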

Additional observations from a re-analysis of the deposited data

Results flagged for a closer look

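For 5 members the KO minus WT difference had 1 sign in both pairs aged 8 weeks (pairs 1 and 3) and the opposite sign in both older pairs (pairs 2 and 4). The mean difference of the 8-week pairs minus that of the older pairs was 0.59 on the log2 scale for Mcm2, 0.55 for Cdt1, 0.55 for Gins1, 0.45 for Rfc4 and 0.335 for Mcm6, and these differences were not tested. Of Mcm2, the within-pair differences were 0.30 in pair 1, −0.21 in pair 2, 0.59 in pair 3 and −0.08 in pair 4. Age in these pairs cannot be told apart from the sex of the KO mouse or from the RNA integrity difference. For E2f2, the level of the WT mouse of pair 4, 7.03, lay far from the other WT levels (7.36, 7.37 and 7.33), its gap taking up 0.882 of the group's range which is past Dixon's 95% critical value. The E2f2 difference of pair 4, 1.38, had a gap of 0.917 of the range of the differences. Since pair means were nearly equal in the deposited values, the level and the difference are largely the same observation and not separate flags. Without pair 4 the E2f2 difference was 0.81 (limma adjusted p = 0.0262). These came from 114 groups of 4 values, many of them not independent for the same reason, and chance puts about 1 in 20 groups past that value.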

How the results depend on the processing

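In all 16 other settings the genes called in the reported fit kept their direction. Over 831 values of 52 genes, 591 kept direction and side of the threshold, 159 lost a call, 19 gained one and 62, all of members not called, turned direction. Counts, by limma, run in the order members higher and lower, genes of the 6 other cell-cycle lists higher and lower, probe sets higher and lower. They were 4, 1, 11, 2, 702 and 599 as reported. With RNA integrity as a covariate beside the replicate block they were 1, 1, 2, 0, 212 and 152, with sex 1, 1, 6, 0, 231 and 233, with the acinar mean 1, 1, 5, 0, 492 and 390 and with the adipocyte mean 2, 1, 5, 4, 657 and 628. Centred on epithelial markers they were 14, 1, 55, 1, 3227 and 295 (members' median 0.373), and centred on housekeeping genes 2, 1, 8, 15, 494 and 5006 (median −0.0282). Without the replicate block they were 13, 1, 49, 11, 3622 and 4026, and with trend and robust variance 4, 1, 19, 3, 1135 and 862. Pairs 1 and 2 alone gave 0, 0, 0, 0, 0 and 0 (members' median 0.210), and pairs 3 and 4 alone 0, 0, 0, 0, 1 and 25 (median 0.103). Quantile normalization (11 and 3 of the other cell-cycle genes) and a filter on background (14 and 2) left 4 and 1 members. With 1 pair left out, 0 to 1 members were higher and 0 to 1 lower, as were 0 to 1 and 0 to 0 other genes and 89 to 219 and 56 to 240 probe sets, with a median of 0.0917 to 0.198. Settings with pairs left out have fewer mice, the sex covariate left each mean difference unchanged, and the causes of the other shifts were not tested.

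The turned log2 differences were as follows. With RNA integrity, Mcm6 had −0.0406 and Rfc4 −0.0445. With the acinar mean, Pcna had 0.0206, Rfc2 0.031, Rfc5 −0.0053 and Lig1 −0.0147. With the adipocyte mean, Orc1 had 0.0911, Mcm6 −0.129, Mcm10 0.106, Gins2 −0.0636, Prim1 −0.012, Rfc3 −0.0353, Rfc4 −0.0537 and Chaf1b −0.0202. Centred on epithelial markers, Orc1 had 0.177, Mcm10 0.229, Gins3 0.137, Pcna 0.147, Rfc2 0.187, Rpa2 0.209, E2f1 0.177 and Chaf1a 0.157. Centred on housekeeping genes, Mcm2 had −0.0145, Mcm4 −0.0045, Mcm6 −0.162, Gins1 −0.0445, Pola1 −0.037, Pola2 −0.0945, Prim1 −0.0545, Rfc3 −0.0995, Rfc4 −0.154, Rfc5 −0.119, Lig1 −0.0195, Rrm1 −0.037 and Chaf1b −0.057. In pairs 1 and 2 alone, Pcna had 0.03, Rfc2 0.05, Rpa2 0.005 and Lig1 −0.06. In pairs 3 and 4 alone, Orc1 had 0.115, Mcm6 −0.14, Mcm10 0.15, Gins2 −0.085, Rfc3 −0.065, Rfc4 −0.04 and Chaf1b −0.045. With quantile normalization, Mcm6 had −0.038 and Rfc4 −0.0362. With 1 pair left out, the ranges were −0.15 to 0.0467 for Orc1, −0.1 to 0.107 for Mcm6, −0.0967 to 0.08 for Mcm10, −0.05 to 0.337 for Prim1, −0.103 to 0.01 for Rfc2, −0.0467 to 0.133 for Rfc3, −0.08 to 0.103 for Rfc4, −0.0033 to 0.113 for Rfc5, −0.07 to 0.0367 for Rpa2 and −0.15 to 0.02 for E2f1.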
